A study of Mus musculus with 6 samples.

Results

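Expression of matrix proteases and their tissue inhibitors was compared in dormant and activated neural stem cells, taken from the ventricular-subventricular zone, a germinal layer beside the lateral ventricles of the adult mouse brain. The group was defined by gene name alone: the matrix metalloproteinases (Mmp), the tissue inhibitors of metalloproteinases (Timp), the ADAM and ADAMTS proteases with the ADAMTS-like proteins, and the HTRA serine proteases. These names matched 74 of the 18193 genes with a probe set annotated to a single gene, and each gene was read from its brightest probe set. Of the 74, 29 were bright enough to be tested, 39.2% against 63.6% of all genes. A further 15 genes with such names, among them Adamts2, Adamts13, Adamts14, Adamts17, Mmp15, Mmp21, Mmp25, Mmp27 and Mmp28, were not analysed here.

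Cells were sorted from adult brains that carry GFP under the GFAP promoter, and both gates required the GFP signal. Quiescent cells were GFP-positive, CD133-positive and CD24-negative. Activated cells met the same gate and were also positive for EGFR, the receptor for epidermal growth factor. Each group was measured on 3 single-colour arrays, called biological replicates by the labels, and this number limits the precision of every value. No treatment, age in days or pooling of animals is given in the sources used here. Values are log2 MAS5 signals. A difference is the activated mean minus the quiescent mean on that scale, ± SE from a limma fit over 11576 genes, with Benjamini-Hochberg adjusted p over all of them (n = 3 arrays per group). A gene was called at an adjusted p under 0.05. Background is the 95th percentile of 27 bacterial control probe sets on each array.

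Matrix metalloproteinases are zinc enzymes that cut collagens, laminins and other matrix proteins, either after secretion or while anchored in the membrane. TIMPs bind their active sites, and TIMP3 also inhibits several ADAM and ADAMTS enzymes. ADAMs shed the outer part of membrane proteins, including Notch and growth factor precursors, although some have lost the catalytic site and act as adhesion receptors. ADAMTS proteases are secreted, and several of them cut the chondroitin sulphate proteoglycans that fill the brain's matrix. HTRA proteins are serine proteases of the extracellular space or the mitochondrion. In this germinal layer, stem cells contact a basement membrane that branches from blood vessels.

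The genes of the sort were examined first. Egfr, whose protein separated the groups, was 2.11 ± 0.24 higher in activated cells (adjusted p = 0.000154). Gfap fell by 4.18 ± 0.58 (adjusted p = 0.000445), Prom1, the gene for the CD133 protein, by 1.22 ± 0.32 (adjusted p = 0.0133), and Cd24a was 4.13 ± 0.50 higher (adjusted p = 0.000224). The Prom1 call did not hold without activated array 1 or quiescent array 2 (adjusted p = 0.0593 and 0.0551) or with arrays aligned on the hybridisation controls (-0.58, adjusted p = 0.309). Of 12 astroglial and quiescent stem cell markers, Gfap and Prom1 among them, 12 were lower in activated cells (17.6% over all tested genes). Of 11 tested markers of progenitors and division, Egfr among them, 11 were higher (17.3% over all tested genes). Background was 5.45 to 6.10 on quiescent arrays and 4.52 to 4.67 on activated arrays. The hybridisation controls, added in equal amount to each array, averaged 14.02 to 14.94 and 13.64 to 13.74. Each of these 2 measures had a two-sided exact permutation p of 0.1, and 3 arrays per group allow no smaller one. The Gapdh control probe sets, whose 3′ minus 5′ signal reports on RNA integrity, gave 2.05 ± 0.52 (SD) on quiescent and 1.37 ± 0.17 on activated arrays, with the same p. The part of these measures in the results was not tested. Over all tested genes the median shifted from 0.01 to 0.66 when arrays were aligned on those hybridisation controls, so every difference here is relative to the deposited scaling.

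The 3 tested TIMP genes, 4 proteoglycan-cutting ADAMTS genes, Htra1 and Adam23 were lower in activated cells, while Adam12, Htra2 and Mmp16 were higher. Of the 29 tested genes 12 were called (41.4%), where 34.9% of all tested genes were. The 9 that fell make up 31.0% of the 29, against 17.6% of all tested genes, and the 3 that rose 10.3%, against 17.3%. The median difference of the 29 was -0.94, against 0.01 over all tested genes, and -0.30 against 0.66 after aligning arrays on the hybridisation controls. With that scaling 4 fell and 4 rose, but the shares of all tested genes given above belong to the deposited scaling. The arrays of the groups did not overlap for 13 of the 29 (44.8%), against 50.7% of all tested genes. In sorted populations, fewer cells of a type and less RNA per cell cannot be told apart.

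**Figure D1:**
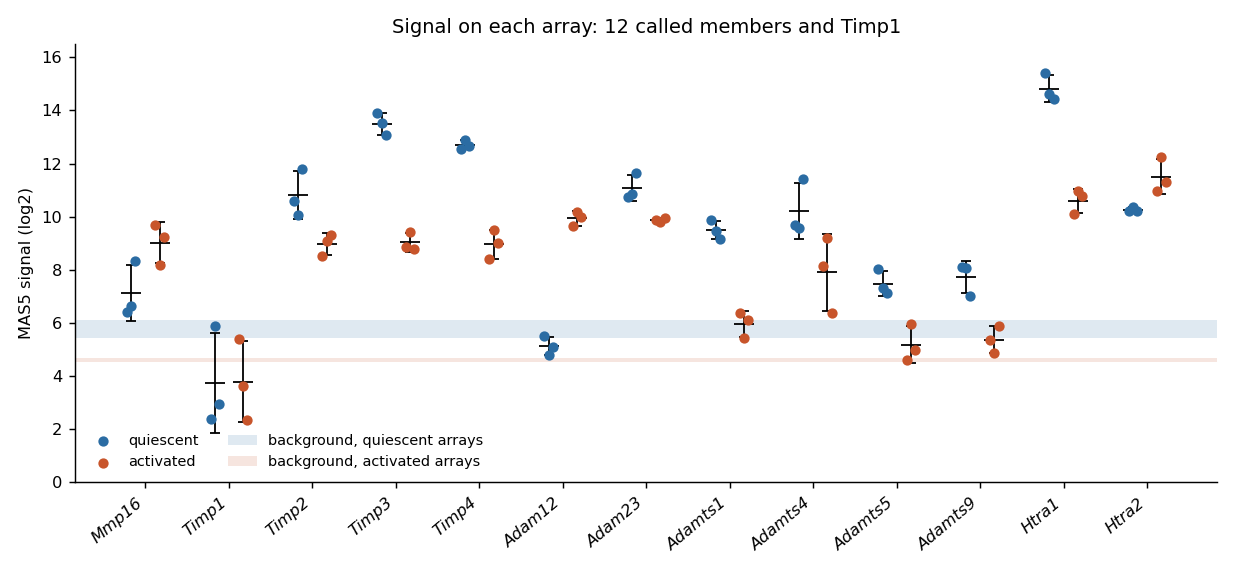
Log2 MAS5 signal on each array for the 12 called genes and Timp1, with the group mean and SD (n = 3) as black bars and the range of background on each group's arrays as shaded bands. Timp3, Timp4 and Htra1 lie far above background in both groups, while Adam12 lies at background on the 3 quiescent arrays.

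Markers of other cell types also differed between the groups. Mature oligodendrocyte markers were lower in activated cells in 11 of 11 tested cases (median -4.93), ependymal markers in 3 of 4 (median -2.75), endothelial in 4 of 5 (median -3.61), pericyte and mural in 3 of 4 (median -4.04) and fibroblast in 2 of 4 (median -2.67). The summed signal of the pericyte and mural markers was 12.23 to 13.15 on quiescent and 8.83 to 9.38 on activated arrays (log2). On quiescent array 3, where this sum was 12.23, Pdgfrb alone read 12.05. Rgs5, Kcnj8, Abcc9, Anpep and Higd1b read 1.61 to 5.13 there, under that array's background of 5.45. The endothelial markers summed to 10.71 to 12.39 on quiescent and 7.85 to 8.32 on activated arrays. On activated arrays 5 of 11 pericyte and 5 of 11 endothelial markers were at background on all 3, among them Pecam1, Kdr and Kcnj8. Fibroblast markers summed to 11.13 to 11.91 and 9.40 to 9.76, with Col3a1 and Lum at background on every array. The 2 called were Col1a1 and Col1a2. Ogn, of the same list, went the other way and was too dim to test. It was at background on the 3 quiescent arrays and read 6.24 to 7.59 on activated arrays. Timp3, Adamts1, Adamts9, Col1a1, Col1a2 and Nid2 are also known from vascular or meningeal cells, and the part of such cells in their differences was not tested. Of 12 microglial markers, 2 were tested and 0 called, and 5 (Aif1, C1qa, C1qc, Tmem119 and Trem2) were at background on every array. Cx3cr1, Csf1r and P2ry12 exceeded background on all 3 quiescent arrays. The microglial markers summed to 8.99 to 9.85 on quiescent and 7.71 to 8.14 on activated arrays. Neuronal markers were higher in activated cells in 2 of 6 tested cases and lower in 0 (median 0.76, sums of 10.50 to 11.01 against 11.19 to 12.18), and oligodendrocyte precursor markers in 1 of 6 and 0 (median 0.66, sums of 10.61 to 12.59 against 11.69 to 12.28). Choroid plexus markers summed to 13.81 on quiescent array 3 and 13.63 on activated array 2, and to 6.44 to 11.13 on the other arrays. Ttr alone read 13.77 on quiescent array 3 and 13.62 on activated array 2. The other choroid plexus markers read 2.40 to 7.27 and 1.06 to 5.77 on those arrays, so the sum follows a single gene.

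4 genes, Timp3, Timp4, Htra1 and Adamts1, fell under every alternative tried, and the 250 bases before the RefSeq start site (build GRCm38.p6, 5′ to 3′ on the gene's strand) are shown for these because they moved together. Capitals mark the matches to 4 motifs on either strand: the GC box GGGCGG, the AP-1 site TGANTCA, the E-box CAGCTG and the TATA box TATAAA. The windows are chr10:86300162-86300411 (Timp3, plus strand), chr6:115252206-115252455 (Timp4, minus strand), chr7:130935953-130936202 (Htra1, plus strand) and chr16:85803114-85803363 (Adamts1, minus strand).
Timp3: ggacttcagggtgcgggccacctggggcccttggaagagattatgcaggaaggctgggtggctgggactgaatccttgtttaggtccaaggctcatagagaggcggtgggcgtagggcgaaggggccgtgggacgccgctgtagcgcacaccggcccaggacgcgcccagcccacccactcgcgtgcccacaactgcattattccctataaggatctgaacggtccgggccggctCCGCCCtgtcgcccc
Timp4: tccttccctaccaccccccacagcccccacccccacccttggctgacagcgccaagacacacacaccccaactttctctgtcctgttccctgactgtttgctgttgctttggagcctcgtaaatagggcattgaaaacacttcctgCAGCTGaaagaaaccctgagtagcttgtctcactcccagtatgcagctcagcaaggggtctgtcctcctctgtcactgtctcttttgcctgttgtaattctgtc
Htra1: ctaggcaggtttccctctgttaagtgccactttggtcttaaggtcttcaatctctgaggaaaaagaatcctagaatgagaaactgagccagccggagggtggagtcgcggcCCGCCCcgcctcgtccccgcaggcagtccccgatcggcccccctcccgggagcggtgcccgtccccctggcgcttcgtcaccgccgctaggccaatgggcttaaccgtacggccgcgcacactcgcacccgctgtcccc
Adamts1: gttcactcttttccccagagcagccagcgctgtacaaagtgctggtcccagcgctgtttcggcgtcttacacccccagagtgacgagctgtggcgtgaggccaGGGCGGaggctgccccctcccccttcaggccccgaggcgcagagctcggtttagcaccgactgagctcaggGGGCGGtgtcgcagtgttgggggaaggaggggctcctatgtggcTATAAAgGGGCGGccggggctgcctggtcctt
The motifs differ among the 4 windows. Timp3 and Htra1 hold 1 GC box each, Adamts1 holds 3 GC boxes and 1 TATA box with no letters shared, and Timp4 holds a single E-box and no GC box. Their GC content is 65.6% (Timp3), 53.6% (Timp4), 64.8% (Htra1) and 65.6% (Adamts1), with a median of 52.4% over all windows. Windows of the same length were found for 16 of the 29 tested genes, 18 windows in all. A GC box stands in 11 of these 18 and in 32.7% of all 32851 windows, taken whether or not their genes were tested here. An E-box of this form stands in 6 of the 18 and 13% of all. An AP-1 site stands in 1 of the 18 (Adam19) and 6.75% of all, and a TATA box in 1 (Adamts1) and 12.4% of all. These matches describe letters and show no binding.

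All 3 tested inhibitor genes fell, with a median difference of -3.74. Timp3, which encodes the TIMP that binds to the matrix, read 13.91, 13.51 and 13.08 on quiescent arrays 1, 2 and 3 and 8.86, 9.44 and 8.80 on activated arrays 1, 2 and 3. The groups lay far apart, and the spread within each was small beside the gap. Timp3 fell by 4.47 ± 0.31 (adjusted p = 3.16e-05), a 22.1-fold difference, and only 1.17% of tested genes had a lower difference. Its 4 probe sets differed by -4.53 to -4.08. In the RefSeq annotation Timp3 lies within the span of Syn3, which encodes a synapsin, and Syn3 differed by -3.86 (adjusted p = 0.00391).

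Timp4 encodes the TIMP with the narrowest tissue range, known from heart and brain. It read 12.56, 12.90 and 12.67 on quiescent arrays and 8.40, 9.49 and 9.02 on activated arrays. The groups were again separate, with activated array 1 lowest. Timp4 fell by 3.74 ± 0.32 (adjusted p = 4.62e-05), and its other probe set differed by -4.14. Timp4 lies inside Syn2, whose own difference was 0.43 (adjusted p = 0.296).

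Timp2 encodes the inhibitor that, with MMP14, also serves to activate pro-MMP2. It read 10.59, 10.05 and 11.80 on quiescent arrays and 8.53, 9.09 and 9.32 on activated arrays. The groups did not overlap, but quiescent array 3 stood above the other quiescent arrays. Timp2 fell by 1.83 ± 0.45 (adjusted p = 0.0106). Its 6 probe sets were all lower in activated cells, by -3.36 to -1.43, and the brightest, used here, showed the second smallest. The Timp2 call was lost after aligning arrays on the hybridisation controls (difference -1.19, adjusted p = 0.119). Timp1 encodes an inhibitor known to be induced in reactive glia and was too dim to test. It read 2.40, 5.89 and 2.94 on quiescent arrays and 5.39, 3.64 and 2.35 on activated arrays, so the groups overlapped and only 1 array of each group exceeded background. Timp1 lies within Syn1, which differed by 4.03 (adjusted p = 0.0426), with quiescent arrays at 2.81, 1.72 and 8.23 and activated arrays at 8.67, 8.03 and 8.13.

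**Figure D2:**
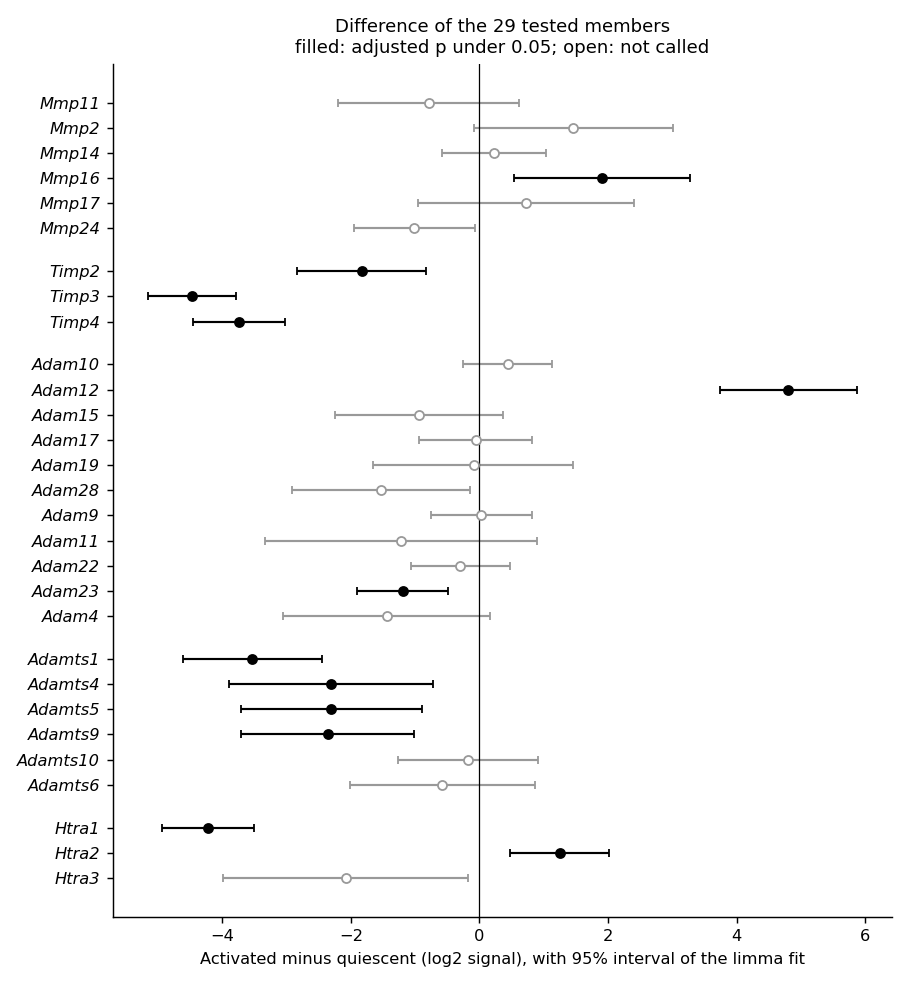
Difference between activated and quiescent cells for the 29 tested genes, ordered by family (MMP, TIMP, ADAM, ADAMTS, HTRA), with the 95% interval of the limma fit and filled points for called genes. The TIMP and the first 4 ADAMTS intervals lie wholly below 0, whereas most MMP and ADAM intervals include 0.

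Among the ADAMTS proteases, calls fell on the enzymes that cut aggrecan, versican and related proteoglycans. The 4 tested members of this subgroup all fell, where 17.6% of all tested genes did, and its other 3 members were too dim to test. Testing required a mean of at least 6.02 over all arrays. Adamts1, Adamts5 and Adamts9 had activated means of 5.97, 5.19 and 5.37 and passed only through their higher quiescent signal. The count of 4 is therefore not independent of the filter. The other 2 tested ADAMTS genes were not called. Of the 4 calls, only that of Adamts1 held in every alternative. Adamts1 read 9.86, 9.48 and 9.16 on quiescent arrays and 6.37, 5.42 and 6.12 on activated arrays. The groups lay apart, and no activated array was at background. Adamts1 fell by 3.53 ± 0.49 (adjusted p = 0.000432), an 11.6-fold difference measured by a single probe set.

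Adamts9, whose product cuts versican and aggrecan, read 8.09, 8.07 and 7.03 on quiescent arrays and 5.35, 4.88 and 5.89 on activated arrays. The groups did not overlap. Adamts9 fell by 2.36 ± 0.61 (adjusted p = 0.0130), its 3 probe sets differed by -4.42 to -2.36, and the call was lost after aligning on the hybridisation controls (adjusted p = 0.0688). Adamts5, an aggrecanase, read 8.02, 7.30 and 7.14 on quiescent arrays and 4.62, 5.95 and 4.99 on activated arrays. Activated array 1 was at background, and quiescent cells were at least 4.88-fold higher. Adamts5 fell by 2.30 ± 0.64 (adjusted p = 0.0177), and its 4 probe sets were all lower, by -5.28 to -2.30. That call was lost with quantile normalization (adjusted p = 0.0983), with alignment on the hybridisation controls (adjusted p = 0.0821), and without quiescent array 1, activated array 1 or activated array 3 (adjusted p = 0.0664, 0.0626 and 0.0569). Adamts1 and Adamts5 are consecutive protein-coding genes in the RefSeq annotation.

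Adamts4, an aggrecanase and brevican-cutting enzyme that mature oligodendrocytes are known to express, read 9.68, 9.56 and 11.43 on quiescent arrays and 8.16, 9.21 and 6.36 on activated arrays. Quiescent array 3 was highest and activated array 3 lowest, and the groups came close to each other without overlapping. Adamts4 fell by 2.31 ± 0.72 (adjusted p = 0.0293). Its other probe set differed by -3.46, with activated array 2 lowest and at background. The summed signal of 11 mature oligodendrocyte markers was 15.65, 14.47 and 16.44 on quiescent arrays and 11.44, 12.66 and 11.26 on activated arrays (log2). Within each group the arrays stood in the same order as for the brightest Adamts4 probe set. The other probe set shared that order on quiescent arrays (9.10, 8.93 and 9.12) but not on activated arrays (6.69, 3.87 and 6.21). The part of these cells in the Adamts4 difference was not tested. The Adamts4 call was lost without quiescent array 3 (difference -1.71, adjusted p = 0.0823), activated array 1 (-2.44, adjusted p = 0.0613) or activated array 3 (-1.54, adjusted p = 0.0975), after aligning on the hybridisation controls (-1.67, adjusted p = 0.114) and without the variance trend (adjusted p = 0.0566). Adamts10 and Adamts6, members of a separate ADAMTS branch, differed by -0.18 (95% interval -1.26 to 0.91) and -0.58 (-2.02 to 0.87). Neither difference exceeded the spread between arrays.

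Among the ADAM genes, Adam12 rose, Adam23 fell and the others were not called. Adam12 encodes a catalytically active ADAM that can shed heparin-binding EGF. It read 5.51, 4.81 and 5.08 on quiescent arrays, all at or below background, and 9.65, 10.19 and 9.98 on activated arrays. Only the activated arrays lay above background. Adam12 was at least 19.3-fold higher in activated cells (fitted difference 4.80 ± 0.48, adjusted p = 8.5e-05), and 99.4% of tested genes had a lower difference. Its second probe set differed by 5.73, again with 3 quiescent arrays at background.

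Adam23, an ADAM without catalytic activity that binds the secreted LGI proteins, read 10.75, 10.84 and 11.65 on quiescent arrays and 9.89, 9.81 and 9.97 on activated arrays. The groups did not overlap, and the activated arrays lay close together. Adam23 fell by 1.19 ± 0.32 (adjusted p = 0.0152), and its 3 probe sets differed by -2.27 to -1.19. Its call did not survive alignment on the hybridisation controls (difference -0.55, adjusted p = 0.391) or the loss of activated array 2 (-1.15, adjusted p = 0.0551). The related receptors Adam22 and Adam11 differed by -0.30 (95% interval -1.07 to 0.48) and -1.22 (-3.33 to 0.89). For Adam11 the dimmer probe set read 5.87 on average in quiescent cells and was at background on 3 of 3 activated arrays, a difference of -4.62 that was not tested. Without quiescent array 2, Adam11 was called (difference -2.42, adjusted p = 0.0238).

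The main sheddases showed no call. Adam10, which cuts Notch receptors and N-cadherin, read 11.02, 11.27 and 11.96 on quiescent arrays and 12.22, 11.61 and 11.74 on activated arrays. The groups overlapped, and the difference of 0.44 ± 0.31 (adjusted p = 0.292) had a 95% interval of -0.25 to 1.13. Adam17, which releases TNF and several EGF receptor ligands, read 9.68, 9.54 and 9.68 against 9.31, 10.38 and 9.02. Its difference of -0.06 ± 0.40 (adjusted p = 0.913) had an interval of -0.94 to 0.82. A second Adam17 probe set had groups that did not overlap (difference -0.89, adjusted p = 0.0760 in a fit over 22608 probe sets, of which 31.9% were called). Adam9 differed by 0.02 (95% interval -0.76 to 0.81), Adam15 by -0.94 (-2.25 to 0.37), Adam19 by -0.09 (-1.65 to 1.46), Adam28 by -1.53 (-2.92 to -0.14) and Adam4 by -1.44 (-3.05 to 0.17). Adam28 did not overlap between groups and missed the threshold (adjusted p = 0.0822). It passed with values raised to background (adjusted p = 0.0387) and without the variance trend (adjusted p = 0.0193).

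Matrix metalloproteinases were mostly dim or not called. Of 18 genes, 6 were tested, 4 of them membrane-anchored. Mmp16, which encodes the membrane-anchored MT3-MMP, read 6.42, 6.64 and 8.32 on quiescent arrays and 9.67, 8.17 and 9.24 on activated arrays. Quiescent array 3 overlapped with activated array 2. Mmp16 was 1.90 ± 0.62 higher (adjusted p = 0.0356), but its probe sets disagreed. The other 3 differed by 1.58, 0.06 and -0.09, and none was called. Without probe sets whose names end in s_at or x_at the difference was 0.06 (adjusted p = 0.929). The mean of the probe sets gave 0.86 (adjusted p = 0.171). The call was also lost without quiescent array 1 or 2 or activated array 1 or 3 (adjusted p = 0.0994, 0.103, 0.140 and 0.109).

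Mmp14, the membrane enzyme that activates pro-MMP2, read 9.87, 10.35 and 11.10 on quiescent arrays and 10.32, 10.63 and 11.07 on activated arrays. The groups overlapped almost fully (difference 0.23 ± 0.37, adjusted p = 0.645, 95% interval -0.58 to 1.04). Mmp24, a membrane enzyme known to cut N-cadherin in stem cells of this layer, read 9.14, 9.19 and 9.39 against 8.93, 7.74 and 8.02. The groups did not overlap, and the difference of -1.01 ± 0.42 missed the threshold (adjusted p = 0.0880). A dim Mmp24 probe set pointed the other way, at 2.59 in quiescent cells, where 3 arrays were at background, and 5.49 in activated cells. The gelatinase gene Mmp2 read 7.41, 6.40 and 5.07 against 8.11, 6.94 and 8.21, a difference of 1.46 ± 0.70 (adjusted p = 0.126). It was called only after aligning on the hybridisation controls (2.11, adjusted p = 0.0328). Mmp11 and Mmp17 differed by -0.79 and 0.72, with adjusted p of 0.351 and 0.483. The other gelatinase gene, Mmp9, was dim, and its brightest probe set exceeded background on quiescent array 2 alone, its other one on quiescent array 3 alone.

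The HTRA serine proteases moved in opposite directions. Htra1 encodes a secreted protease of matrix proteins that astrocytes are known to express. It read 15.39, 14.63 and 14.44 on quiescent arrays and 10.09, 10.95 and 10.77 on activated arrays. The groups lay far apart and both stood well above background. Htra1 fell by 4.22 ± 0.32 (adjusted p = 3.26e-05), an 18.6-fold difference, and its other probe set differed by -4.89. Htra2 encodes a mitochondrial protease that can also promote cell death when released. It read 10.23, 10.36 and 10.21 against 10.96, 12.26 and 11.32, with quiescent arrays close together and activated array 2 highest. Htra2 was 1.25 ± 0.35 higher (adjusted p = 0.0182). Its second probe set differed by 0.88 (adjusted p = 0.0525), and leaving out activated array 2 ended the call (0.87, adjusted p = 0.0893). Htra3, another secreted protease, read 6.33, 8.90 and 9.47 against 5.14, 5.99 and 7.31. The groups overlapped through quiescent array 1, and the difference of -2.08 ± 0.86 was not called (adjusted p = 0.0839). Without that array it was -3.03 (adjusted p = 0.0119), and with the replicate number as a block the adjusted p was 0.0244.

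**Figure D3:**
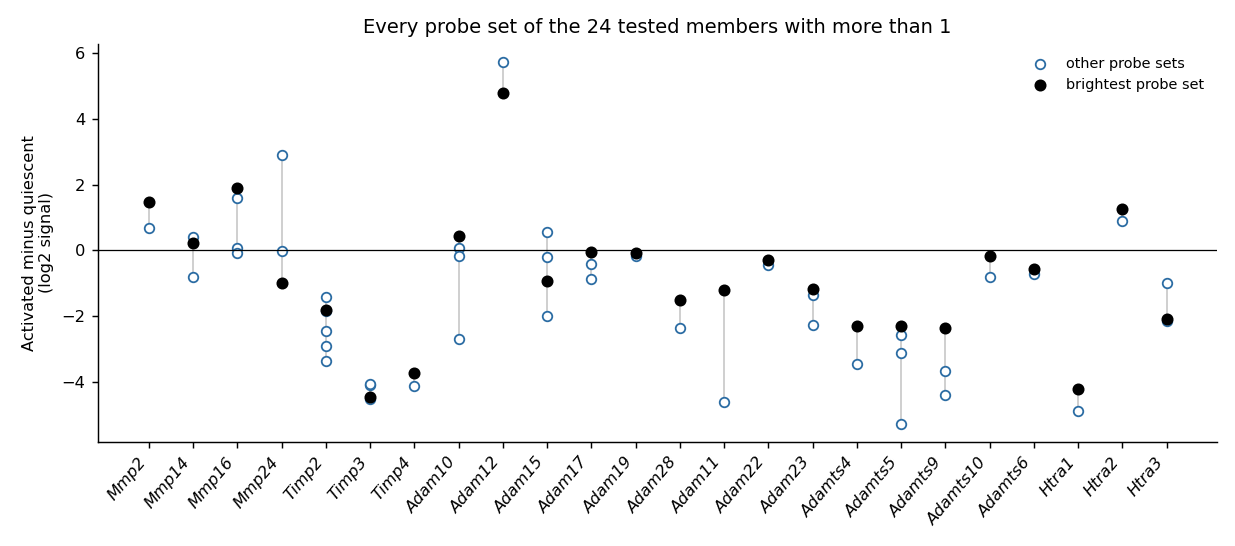
Difference between activated and quiescent cells for every probe set of the 24 tested genes with more than 1, the brightest filled and the others open. All probe sets of Timp2, Timp3, Timp4, Adamts4, Adamts5, Adamts9, Adam23 and Htra1 lie below 0, both of Adam12 lie above 4, and those of Mmp14, Mmp16, Mmp24, Adam10 and Adam15 spread to either side of 0.

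The 45 dim genes had mean signals of 1.07 to 5.95. For 18 of them every array was at or below background, and for 23 the 3 activated arrays were. At least 1 quiescent array exceeded background for 21 of the 45, and at least 1 activated array for 22. They include 12 secreted MMP genes, 15 ADAM genes known mostly from the germ line and all 5 ADAMTS-like genes. Tested without the filter on dim genes, 12 of the 74 fell and 4 rose, against 13.2% and 10.4% of all 18193 genes. The dim genes among these were Adamts20, Adamtsl4 and Mmp8 (lower) and Adamts7 (higher).

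Adamts20, which encodes a versican-cutting protease, read 7.03, 7.96 and 8.93 on quiescent arrays and 0.22, 2.01 and 4.23 on activated arrays. The activated arrays were all at background, and the quiescent mean was at least 10.4-fold higher (adjusted p = 0.00233 without the filter). Adamtsl4, an ADAMTS-like protein without protease domain, read 9.37, 7.31 and 7.99 against 2.08, 4.83 and 4.01. Activated arrays 1 and 3 were at background, and the difference was at least 11.5-fold (adjusted p = 0.00338 without the filter). Adamts7, a protease of cartilage oligomeric matrix protein, read 4.63, 2.68 and 3.05 against 6.41, 8.90 and 8.05. The 3 quiescent arrays were at background, and the activated mean was at least 4.35-fold higher (adjusted p = 0.00464 without the filter). Mmp8 was at or below background on every array, so its difference is not a measured one.

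Partner and substrate genes were examined in 8 lists, whose counts stand beside the 17.6% of all tested genes that fell and the 17.3% that rose. These shares belong to the deposited scaling, not to counts after alignment on the hybridisation controls. Among other inhibitors and clearance receptors, 6 of 9 tested genes fell and 0 rose (median -1.44). Sparc, a matrix-binding glycoprotein, fell by 3.93 ± 0.31 (adjusted p = 3.42e-05), Spock1, a testican, fell at least 13.7-fold (adjusted p = 0.00670), and Lrp1, the endocytic receptor that clears proteases and their inhibitor complexes, fell by 1.99 ± 0.31 (adjusted p = 0.000826). Of the plasminogen system 4 of 10 measured genes were tested, and 1 fell: Anxa2, a plasminogen and tissue plasminogen activator receptor subunit (by 2.71 ± 0.64, adjusted p = 0.00835), with 0 called lower after alignment on the hybridisation controls. Of 6 proprotein convertases, which cut the prodomain from many of these proteases, 2 fell. Pcsk6 fell by 3.94 ± 0.59 (adjusted p = 0.000700) and Furin by 1.14 ± 0.33 (adjusted p = 0.0209). Furin lost its call after alignment on the hybridisation controls (adjusted p = 0.403) and without activated array 1, activated array 3 or quiescent array 1 (adjusted p = 0.0633, 0.0796 and 0.0539). S100a10, the partner subunit of Anxa2, differed by 1.83 ± 0.65 and lay next to the threshold (adjusted p = 0.0504).

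Of 12 genes for ADAM trafficking partners, 4 fell and 0 rose (17.6% and 17.3% over all tested genes), or 2 and 0 after aligning on the hybridisation controls. Tspan15 and Tspan33, tetraspanins that direct ADAM10 to particular substrates, fell by 3.24 ± 0.48 and 2.47 ± 0.45 (adjusted p = 0.000668 and 0.00211). Pacsin3, an adaptor of ADAM proteins, fell by 1.29 ± 0.32 (adjusted p = 0.0100). Its call was lost after alignment on the hybridisation controls (-0.65, adjusted p = 0.191). It was also lost without probe sets whose names end in s_at or x_at (-0.77, adjusted p = 0.166). Tspan5 and Tspan14, which also direct ADAM10, differed by -0.56 and -0.32 and were not called. Of 25 membrane proteins shed by ADAM10 or ADAM17, 8 fell and 3 rose, or 3 and 3 after that alignment. Sdc4, a syndecan, fell by 4.32 ± 0.31 (adjusted p = 3.20e-05), Prnp, the prion protein, by 2.83 ± 0.24 (adjusted p = 4.18e-05), and Tnfrsf1b, a TNF receptor, at least 5.89-fold (adjusted p = 0.0147), a call lost without activated array 1 or quiescent array 2 (adjusted p = 0.0553 and 0.0663), with quantile normalization (adjusted p = 0.0585) and with alignment on the hybridisation controls (adjusted p = 0.0812). The Notch ligand Dll1 was 4.07 ± 0.41 higher (adjusted p = 8.82e-05).

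Of 11 tested genes for lecticans, link proteins, tenascins and the proteoglycans Cspg4 and Cspg5, 6 fell and 0 rose (median -2.30). Over all tested genes 17.6% fell and 17.3% rose. Vcan, versican, differed by 0.80 ± 0.33, towards higher signal in activated cells, and was not called (adjusted p = 0.0821). Hapln1, a hyaluronan link protein, fell by 5.06 ± 0.38 (adjusted p = 3.26e-05), Bcan, brevican, by 2.87 ± 0.24 (adjusted p = 4.35e-05), and Hapln2, a link protein of nodes of Ranvier, at least 13.3-fold (adjusted p = 0.00531). Hapln2 read 8.46, 7.40 and 10.69 on quiescent arrays and 2.08, 6.09 and 2.47 on activated arrays. The mature oligodendrocyte markers were also highest on quiescent array 3 and activated array 2 within their groups. The part of oligodendrocytes in the Hapln2 difference was not tested. Of 17 genes of basement membrane and interstitial matrix, 8 fell and 0 rose (median -1.02), or 5 without quiescent array 2. Col1a1 fell by 4.70 ± 0.61 (adjusted p = 0.000294), and Nid2 and Col1a2 were at least 16.1-fold and 14.1-fold lower (adjusted p = 0.000471 and 0.00140). Of 9 tested LGI proteins, integrins and scaffolds, 4 fell and 0 rose (median -1.43), among them Lgi4 (by 3.34 ± 0.44, adjusted p = 0.000350), Itga6 (by 2.45 ± 0.43, adjusted p = 0.00173) and Itgav (by 2.16 ± 0.27, adjusted p = 0.000255). The counts of higher genes became 1 after aligning on the hybridisation controls for the lectican, LGI, convertase and plasminogen lists.

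**Figure D4:**
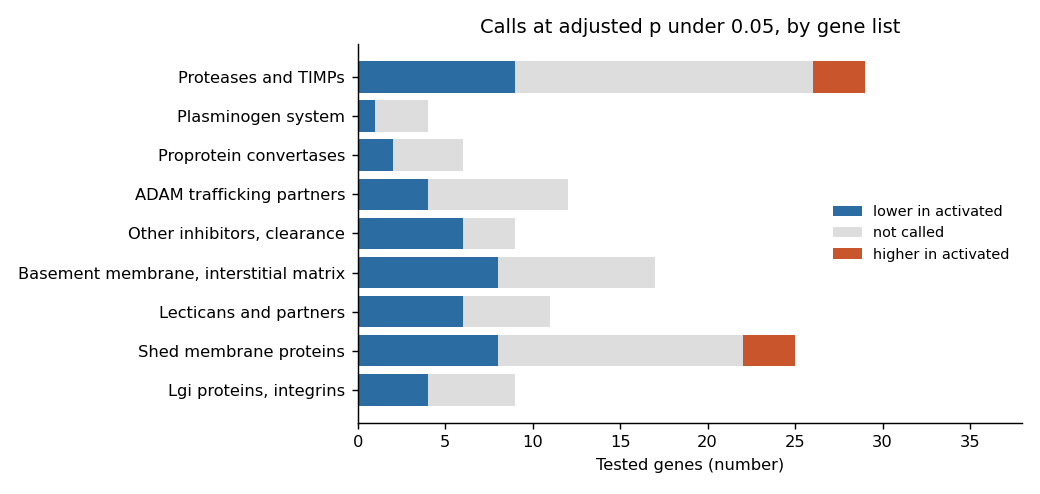
Number of tested genes called lower, not called and called higher in activated cells, for the 29 proteases and inhibitors and for the 8 lists of partners and substrates. Lower calls outnumber higher calls in each list, and only the first list and that of shed membrane proteins hold higher calls.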

How the data were processed

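RNA of 3 quiescent and 3 activated sorted populations was measured on single-colour arrays of 45101 probe sets. Total RNA from miRNeasy columns was amplified (NuGEN Pico) and biotin-labelled, per the labels' protocols. The deposited values are log2 signals. The submitters' processing notes name MAS5 as the authors' software. The version of MAS5, detection calls and genome build: not given in the sources used here. Each array's linear 2% trimmed mean was 500.0, a scaling that hides any difference in RNA content between cells, and low MAS5 values are noisy.

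Of the probe sets, 34945 were annotated to 1 gene, 932 to several and 9160 to none, and 64 were controls. Symbols were updated through a RefSeq gene table of GRCm38.p6, used for names, neighbours and promoter windows, in which 99.4% of identifiers were found. The brightest probe set of each gene was used if its mean was at least 6.02, the 40th percentile over the whole array. The main test was limma (version 3.58.1, R 4.3.3), with lmFit and with eBayes using a variance trend, and 95% intervals come from that fit. The calculation was tested on simulated data. A fold is a lower bound where the lower group had an array at background: signals below background were then raised to it.

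The genes studied and all lists were chosen with earlier results of these data known. Array values are given for each TIMP gene and each called gene of the group that differed by at least 1, with others given where their probe sets or arrays disagreed, chosen after their values were seen. In a list, the 3 largest called differences in its main direction and the largest in the opposite one are named. S100a10, Tspan5, Tspan14, Vcan, the single markers of other cell types, the spanning and neighbouring genes and the dim genes were also chosen after their values were seen. Alternatives were 2 other filters, quantile normalization, alignment on 18 hybridisation control probe sets, raising values to background, adding 16 to linear signals, 2 other probe set rules, no variance trend, the replicate number as a block and each array left out. Of the 2 other probe set rules, 1 took the mean and 1 left out probe sets whose names end in s_at or x_at. Fitting each further probe set separately was chosen after seeing the data. Figures were drawn with matplotlib 3.10.9.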

Additional observations from a re-analysis of the deposited data

How the results depend on the processing

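Over 16 alternatives, 5 of the 12 called genes (Timp3, Timp4, Htra1, Adamts1 and Adam12) passed wherever they were tested. The other 7 lost their call in at least 1, and none of the 12 changed sign. The count of lower genes was 4 after alignment on the hybridisation controls. The count of higher genes was 1 without probe sets whose names end in s_at or x_at, where Htra2 has no probe set left to test. Leaving out each array in turn gave 2 to 3 higher and 7 to 10 lower genes. Equal replicate numbers did not deviate together (correlations 0.056, -0.025 and 0.029), and with the replicate block 3 genes were higher and 10 lower. For 10 uncalled genes the sign changed. Alignment on the hybridisation controls gave 0.58 for Adam17, 0.55 for Adam19, 0.35 for Adam22, 0.47 for Adamts10 and 0.07 for Adamts6. Quantile normalization gave 0.43 for Adam19 and 0.01 for Adamts10, and the mean of probe sets -0.06 for Mmp14, 0.62 for Mmp24 and -0.59 for Adam10. With single arrays left out the differences ran from -0.47 to 0.21 for Adam17, -0.56 to 0.62 for Adam19, -0.16 to 0.12 for Adam9, -0.58 to 0.18 for Adamts10, -0.98 to 0.12 for Adamts6, -0.05 to 0.56 for Mmp14 and -0.09 to 1.14 for Mmp17. Of 19 further probe sets of called genes, 14 were called in the same direction, and 1 of Mmp16 differed by -0.09. The cause of these changes was not tested. Signal over background limits the 45 dim genes and the groups at background.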
